A study of Sus scrofa and Bos taurus with 31 samples.

Results

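Open chromatin of skeletal muscle was compared with that of 7 other tissues (liver, lung, spleen, adipose, cerebellum, cerebral cortex and hypothalamus) in pig and, as a second species, in cattle. Overlapping peaks of all libraries of a species were joined into regions, a region counted as open in muscle when both muscle libraries had a peak in it, and as open only in muscle when no library of another tissue had one. In pig, 10667 of 533944 regions were open only in muscle, which is 12.4% of the 86150 regions open in muscle. In cattle, 6430 of 504914 regions were open only in muscle, or 7.81% of 82303. These counts come from 2 muscle libraries and 14 others in pig, and from 2 muscle libraries and 13 others in cattle, where cerebellum has 1 library. Muscle regions were chosen by the presence of peaks, so their presence in muscle is a definition and not a result.

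The assay was ATAC-seq, in which a transposase cuts DNA that is not covered by nucleosomes, and each list holds the stretches where cuts pile up (peaks). Tissues came from 2 castrated male Yorkshire pigs, littermates killed at 6 months and called P348 and P350, and from 2 intact male Line 1 Hereford cattle that shared a sire, killed at 14 months and called M08 and M22. All animals were male and no animal was treated, so tissue and animal are the only factors. Nuclei were prepared from whole tissue, and in such bulk samples fewer cells of a type and less open chromatin per cell cannot be told apart. The muscle that was sampled is given in the labels only as skeletal muscle, so its fibre make-up is not known.

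Skeletal muscle fibres are long cells with many nuclei, filled with sarcomeres in which thick filaments of myosin pull on thin filaments of actin between Z-discs. Myogenic regulatory factors such as MYOD1 bind E-box sequences and act with MEF2 proteins at muscle enhancers, and TEAD1 and SRF bind further elements of the same genes. Enhancers of a differentiated tissue lie mostly in introns and between genes rather than at promoters, which are often shared by many tissues.

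The sequences below show DNA open only in muscle, with and without a MEF2 site. They are the 4 pig regions with the highest fold that lay outside exons and had a match to the MEF2 consensus, ranked by the weaker of the 2 muscle libraries, and 2 regions from the 6 strongest of all. Letters are the plus strand of Sscrofa11.1 from RefSeq, 300 bases around the centre of each region, and capitals mark matches to MEF2, to the E-box CAGCTG, or to the AP-1 site TGANTCA.

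MEF2 region, intergenic, chr6:94153612-94153911: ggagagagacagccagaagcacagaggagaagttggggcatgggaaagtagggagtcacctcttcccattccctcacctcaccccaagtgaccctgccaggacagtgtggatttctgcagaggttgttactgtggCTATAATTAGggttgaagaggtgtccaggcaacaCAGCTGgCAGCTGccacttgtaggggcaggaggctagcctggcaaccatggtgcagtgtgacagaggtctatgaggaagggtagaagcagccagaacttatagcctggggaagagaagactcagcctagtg

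MEF2 region in AUTS2, chr3:14119355-14119654: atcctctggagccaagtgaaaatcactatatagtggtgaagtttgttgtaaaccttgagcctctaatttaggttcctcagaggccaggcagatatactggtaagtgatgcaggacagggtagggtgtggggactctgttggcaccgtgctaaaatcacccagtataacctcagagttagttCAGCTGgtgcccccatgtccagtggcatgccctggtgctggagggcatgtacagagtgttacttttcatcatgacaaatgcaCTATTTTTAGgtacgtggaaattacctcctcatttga

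MEF2 region in CERS6, chr15:75117067-75117366: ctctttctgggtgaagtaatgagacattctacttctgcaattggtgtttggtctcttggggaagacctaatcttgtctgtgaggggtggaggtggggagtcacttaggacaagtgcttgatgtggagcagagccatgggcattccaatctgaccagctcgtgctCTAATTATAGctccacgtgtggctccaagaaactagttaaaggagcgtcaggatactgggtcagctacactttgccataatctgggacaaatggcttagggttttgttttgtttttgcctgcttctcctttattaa

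MEF2 region in TRAPPC11, chr15:45004136-45004435: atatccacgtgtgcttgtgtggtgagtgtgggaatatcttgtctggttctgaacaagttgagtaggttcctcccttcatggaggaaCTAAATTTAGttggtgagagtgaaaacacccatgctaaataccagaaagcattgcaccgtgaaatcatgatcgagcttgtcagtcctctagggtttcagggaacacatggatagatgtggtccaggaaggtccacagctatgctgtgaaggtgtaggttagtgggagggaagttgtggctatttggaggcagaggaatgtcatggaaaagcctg

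Region near PPP3CA, chr8:119400743-119401042: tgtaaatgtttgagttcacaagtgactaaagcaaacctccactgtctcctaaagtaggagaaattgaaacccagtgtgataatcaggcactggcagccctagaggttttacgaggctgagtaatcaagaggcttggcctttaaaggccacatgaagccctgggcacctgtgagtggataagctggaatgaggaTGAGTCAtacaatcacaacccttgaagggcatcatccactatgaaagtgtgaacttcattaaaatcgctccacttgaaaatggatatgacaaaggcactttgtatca

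Region of the SLC24A5 interval, chr1:123817419-123817718: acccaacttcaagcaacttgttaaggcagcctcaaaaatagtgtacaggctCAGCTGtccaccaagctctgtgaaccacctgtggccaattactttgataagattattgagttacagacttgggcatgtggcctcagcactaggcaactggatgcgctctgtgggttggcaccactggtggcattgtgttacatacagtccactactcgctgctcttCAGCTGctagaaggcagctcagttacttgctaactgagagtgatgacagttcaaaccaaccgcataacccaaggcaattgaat

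The first of these, intergenic and 125709 bp from the start of POU3F1, had a MEF2 match and 2 CAGCTG matches within 300 bases, and a fold of 15.8 in P348 and 15.4 in P350. Fold is the enrichment of a peak over local background given by the peak caller. The AUTS2 intron joined MEF2 and CAGCTG once each, with folds of 14.8 and 15.99. In the CERS6 and TRAPPC11 introns MEF2 stood without CAGCTG, with folds from 13.4 to 15.7 over the 4 values. The region near PPP3CA, which encodes the catalytic subunit of calcineurin, held an AP-1 match and no MEF2 match, and that of the SLC24A5 interval held 2 CAGCTG matches. MEF2 matches were therefore not present in all strong muscle regions, and the shares over all regions are given further on.

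Muscle had more strong private regions than any other tissue in both species, where private means open in 1 tissue only. Among regions open only in muscle, 365 in pig reached a fold of 10 in both libraries, against 0 to 12 for the regions private to any other pig tissue, with liver at 12. In cattle the count was 115, against 0 to 29 elsewhere, where 29 belonged to the single cerebellum library and 27 to lung. By number alone muscle was second in pig, after cerebellum with 19024 and before cerebral cortex with 7716, and in cattle it came after cerebellum with 58894 and lung with 14556. The 2 muscle libraries of pig also had the highest median −log10 q of all 16 lists, 6.57 in P348 and 9.74 in P350 against 1.85 to 3.93 in the others, and the part of peak strength in these counts was not tested. In cattle the muscle medians of 4.63 and 4.27 lay under that of the M08 liver list, 4.83, and above those of the other 12 lists.

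**Figure D1:**
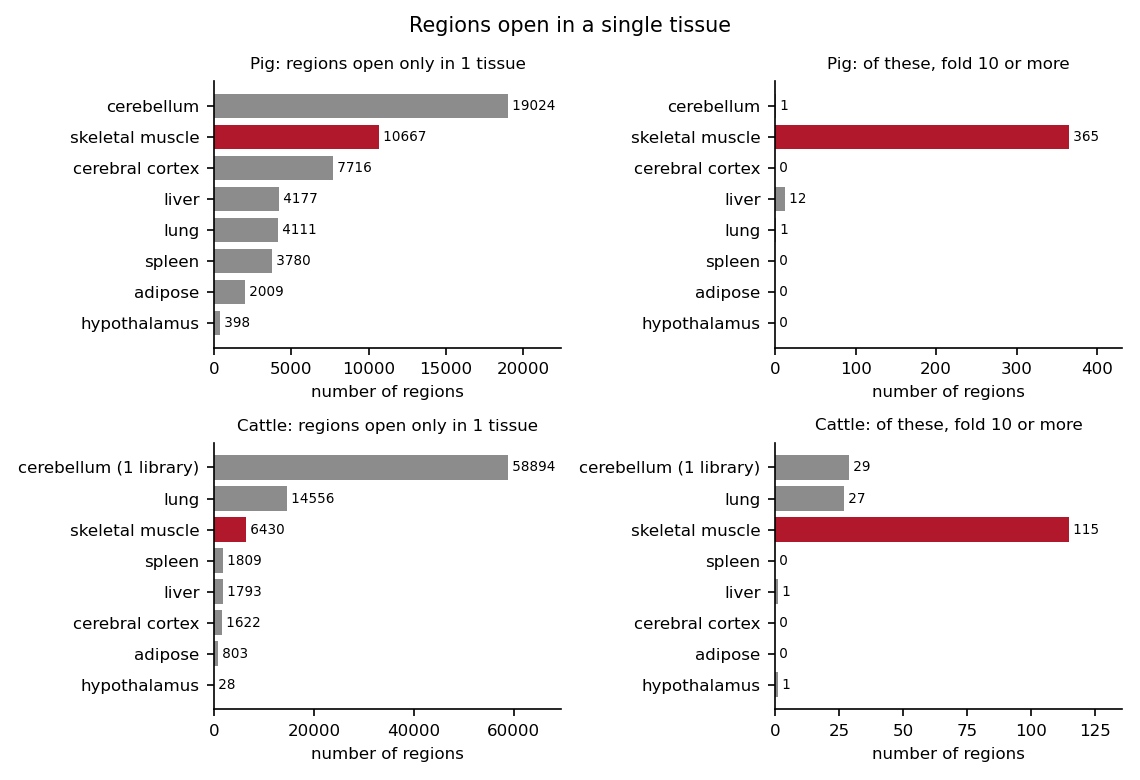
Bars give the number of merged regions open in 1 tissue only (left) and how many of these have a fold of at least 10 in all libraries of that tissue (right), for pig (top) and cattle (bottom); muscle is in red. Muscle is second in pig with 10667 and comes after cerebellum and lung in cattle with 6430, and has the highest count at a fold of at least 10 in both, 365 and 115.

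Private muscle regions had folds close to those of other muscle regions. The median fold of the weaker library was 3.78 in pig and 3.83 in cattle, against 3.76 and 3.87 for muscle regions shared with another library. The fold of a region is that of its strongest peak in a library. Shared regions are wider and can hold more peaks, so the comparison is not on equal terms. A fold of 5 in both animals was reached by 28.4% of the pig regions and 25.7% of the cattle regions. The median width was 431 bp and 407.5 bp, and it cannot be set against that of shared regions, which join peaks of more libraries and are wider by construction. Across private regions the log2 folds of the 2 muscle libraries correlated with r = 0.828 over 10667 regions in pig and 0.722 over 6430 in cattle, which is a description across regions that share their libraries. Together these regions covered 6.47 Mb in pig and 3.55 Mb in cattle. Just outside the rule lay 5038 pig regions with a peak in exactly 1 library of another tissue, with a median weaker fold of 3.67.

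The count depends on how strictly a peak is read. Where no other tissue had a peak in both animals, which allows peaks in single libraries, 20787 regions in pig and 12083 in cattle were private to muscle, and with peaks at q under 0.0001 the counts were 23205 and 11172. With all lists at the length of the shortest, the counts stayed within 1.5 times of the main ones. Without the P350 muscle library the pig count was 17390, without M08 the cattle count was 13301 and without M22 it was 11908. With 1 muscle library left a peak in that library is enough, so the rule is looser and these rises follow from it.

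Few private muscle regions lay at promoters. In pig, 465 of 10667 regions lay within 2 kb of the start (TSS) of a protein-coding transcript. This is 4.36%, with a 95% Wilson interval from 3.99 to 4.76 for counting error. Among the muscle regions shared with another library it was 21.0%. Regions private to each of the other 7 pig tissues had shares from 0.75% in hypothalamus to 5.24% in spleen, so a low share is not particular to muscle. Shared regions are wider by construction, and the part of width in these shares was not tested. Introns held 54.9% of the private regions, against 32.9% of the shared ones, and 30.1% were intergenic. Coding exons were touched by 802 regions, or 7.52%. The share near a coding TSS rose with the number of other tissues in which a muscle region was open in both animals, from 4.23% with none to 62.2% with all 7. The private regions lay at a median of 29420 bp from the nearest coding TSS, with 19.0% over 100 kb away, and the shared ones at 21509 bp.

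Genes carry these regions in clusters. The private regions were nearest to 5346 of 20394 protein-coding genes (26.2%), and 387 genes with at least 5 regions each took 25.7% of all regions. DMD, which encodes dystrophin, the link between the fibre's actin and its membrane, was nearest to 34, and 34 lay inside the gene. PDE4D, a cyclic AMP phosphodiesterase, followed with 27. TRDN (triadin, of the calcium release complex) had 19, NEB (nebulin, which spans the thin filament) 18 and TTN (titin, the spring of the sarcomere) 15. PHKB, a subunit of phosphorylase kinase that starts glycogen breakdown, and PDLIM5, a Z-disc protein, had 15 each. The other genes among the top 12 were ZBTB20 and RORA, transcription factors, with 18 and 16, FGF13, an intracellular FGF that modulates sodium channels, with 16, and ZFAND3 and QKI, the latter an RNA-binding splicing factor, with 15 each. These 12 are long genes, with a median of 363 kb against 19.6 kb for all coding genes, and a long gene has more room for regions.

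The 3 stretches of 1 Mb with the most private regions in pig had 29 each, against a median of 4 over the 1949 stretches with any. On chromosome 15, the stretch from 1 to 1000000 contains NEB and RIF1 and that from 84000001 to 85000000 contains TTN and CCDC141. On chromosome 12, the stretch from 10000001 to 11000000 contains only 3 named coding genes, KCNJ2 and KCNJ16, both inward rectifier potassium channels, and MAP2K6, a kinase upstream of p38. Cattle showed the same clustering, with 26 private regions in chromosome 2 from 18000001 to 19000000, where the median over 1781 stretches was 3. No cattle annotation was used here, so the genes of that stretch are not named. As a share of its own regions the X chromosome had the most private to muscle. In pig it was 4.73%, against 1.34% to 3.16% on the 18 numbered chromosomes, and in cattle 2.68%, against 0.734% to 2.30% on 29. By count it did not lead. In pig the X had 536 of 11342 regions and chromosome 1 had 1206 of 59708. In cattle the X had 257 of 9585 and chromosome 2 had 356 of 25765. The share on the X was not compared with that of other tissues.

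The single strongest regions did not lie at muscle structural genes. In pig the highest weaker fold, 17.6, belonged to an intergenic region on chromosome 2 from 128893654 to 128894041, 617225 bp from the start of GRAMD2B, with 17.6 in P348 and 18.2 in P350. The next, from 119400678 to 119401107 on chromosome 8, was 28289 bp from the start of PPP3CA with folds of 17.5 and 18.2. Of the other 4, 3 overlapped coding exons, of TIA1, HERC2 and ZNF280C, and 1 was intergenic on chromosome 1 at 123817332. Their folds ran from 16.6 to 18.6 in both libraries. Among the promoters open only in muscle the 4 highest were those of KCNS3, a potassium channel subunit, at 13.7 and 14.7, of ATG4A, an autophagy protease, at 12.6 and 13.3, of C1H6orf163 at 12.5 and 13.6, and of BEST3, a bestrophin, at 11.4 and 11.08. In cattle the highest was on chromosome 6 from 1513188 to 1513616 with 16.95 in M08 and 17.1 in M22, and the other 5 of the 6 highest had weaker folds between 13.5 and 14.97.

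Sarcomere genes made up most of the 15 genes with the largest difference upward in muscle. For each pig gene, the peak bases in the gene and 10 kb on either side were taken per Mb of peak bases in the library, and muscle was tested against the mean of the other 7 tissues with limma, the p-values adjusted by the Benjamini-Hochberg method over 19638 genes. At an adjusted p under 0.05, 6105 genes (31.1%) were higher in muscle and 2762 (14.1%) lower. Over all genes the median difference was 0.27 on the log2 scale, so differences near that value mark no distance from the bulk of genes. Both muscle libraries lay above all 14 others for 3519 genes (17.9%) and below all for 1238 (6.3%). The 15 genes were picked among called genes with both muscle libraries above all others. For them that position is a rule and not a result. Without the P350 muscle library 2190 genes were called higher and 1157 lower, and without P348 3905 were called higher. With peaks at q under 0.0001 the split was 1948 higher and 2479 lower and the median over all genes was −0.15, so which direction prevails depends on the peaks used. Within 2 kb of the TSS the counts were 2271 and 556.

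NEB had the largest difference upward. It had 681 peak bases per Mb in P348 and 1005 in P350, while the others ran from 6.48 to 76.8 with a median of 52.5. The log2 difference was 4.17 (SE 0.27, limma adjusted p = 3.4e-07). Inside the gene lay 60 muscle peaks in P348 and 63 in P350, against 2 to 13 in the other 14 libraries. The peaks spread over the whole gene, 25 private regions inside it, and each was modest: the highest fold in the gene was 6.29 in P348 and 6.22 in P350. Cerebellum had 2 and 3 peaks there, with a highest fold of 9.01 in P350, so strength and number of peaks went apart.

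**Figure D2:**
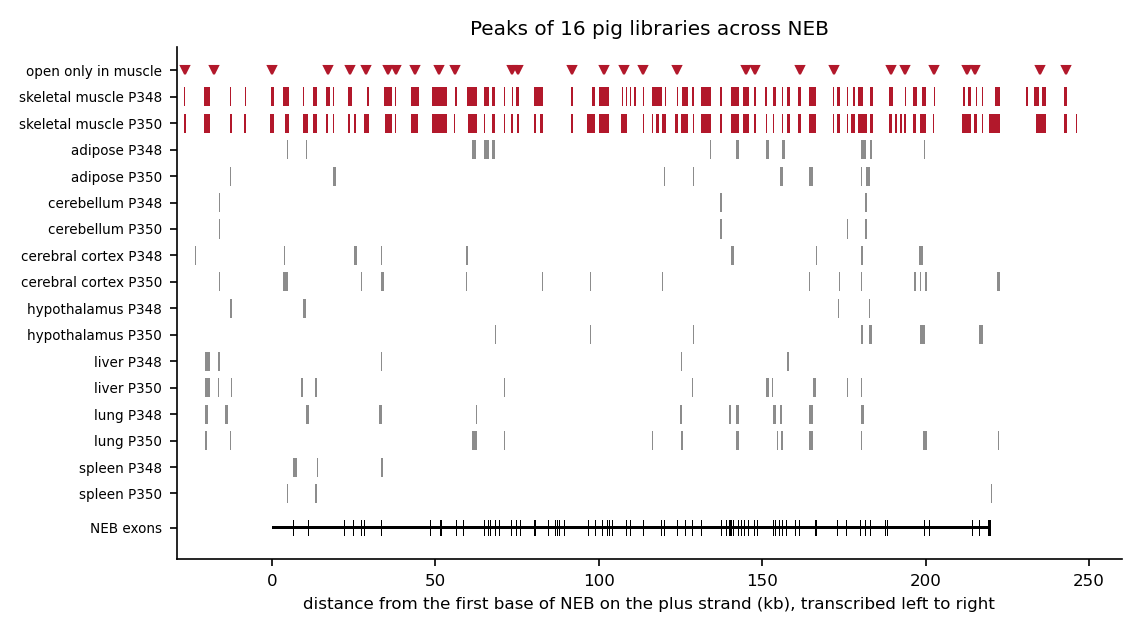
Each bar is a peak of 1 of 16 pig libraries along NEB and 30 kb on either side, in kb from the first base of the gene, with muscle in red; triangles mark the centres of regions open only in muscle and the bottom row shows the exons. The 2 muscle libraries have 60 and 63 peaks in the gene and the others 2 to 13.

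TRDN came next, at 482 and 834 peak bases per Mb against 5.19 to 140, a log2 difference of 3.82 (SE 0.31). TTN reached 947 and 1255 against 50.5 to 163 and a difference of 3.55 (SE 0.23). Both are large genes. The fast myosin heavy chain MYH1 differed from near nothing, with 77.4 and 149 in muscle, a median of 0 and at most 11.05 elsewhere. Its neighbour MYH4 had 59.8 and 134, again with a median of 0 and a maximum of 11.05, and since the 2 genes lie side by side on chromosome 12 their 10 kb flanks share peaks.

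Further genes among the 15 with the largest differences were DMD, NEXN, MYBPC1, MYPN, LMOD3, PPP1R3A, KLHL41, XIRP2 and ROCK2, with log2 differences from 3.0 to 3.29 and adjusted p from 4.4e-08 to 2.6e-05 by limma. LMOD3, a leiomodin that nucleates actin filaments, had 111 and 89.0, with a median of 0 elsewhere and a highest value of 23.2. KLHL41, which stabilises nebulin, had 79.3 and 131 against at most 26.8, and PPP1R3A, the muscle glycogen-targeting subunit of protein phosphatase 1, had 107 in both pigs against at most 34.5. ROCK2, a kinase of the actin cytoskeleton found in many tissues, was the member least known for muscle, at 336 and 424 against 13.6 to 85.3. The 15 genes highest and 8 lowest were picked as the farthest called genes of these same libraries, so keeping a call in refits tests little. They kept their call and direction in 551 of 552 refits. The exception was ROCK2, whose adjusted p was 0.11 when only 2 kb around the TSS was counted.

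**Figure D3:**
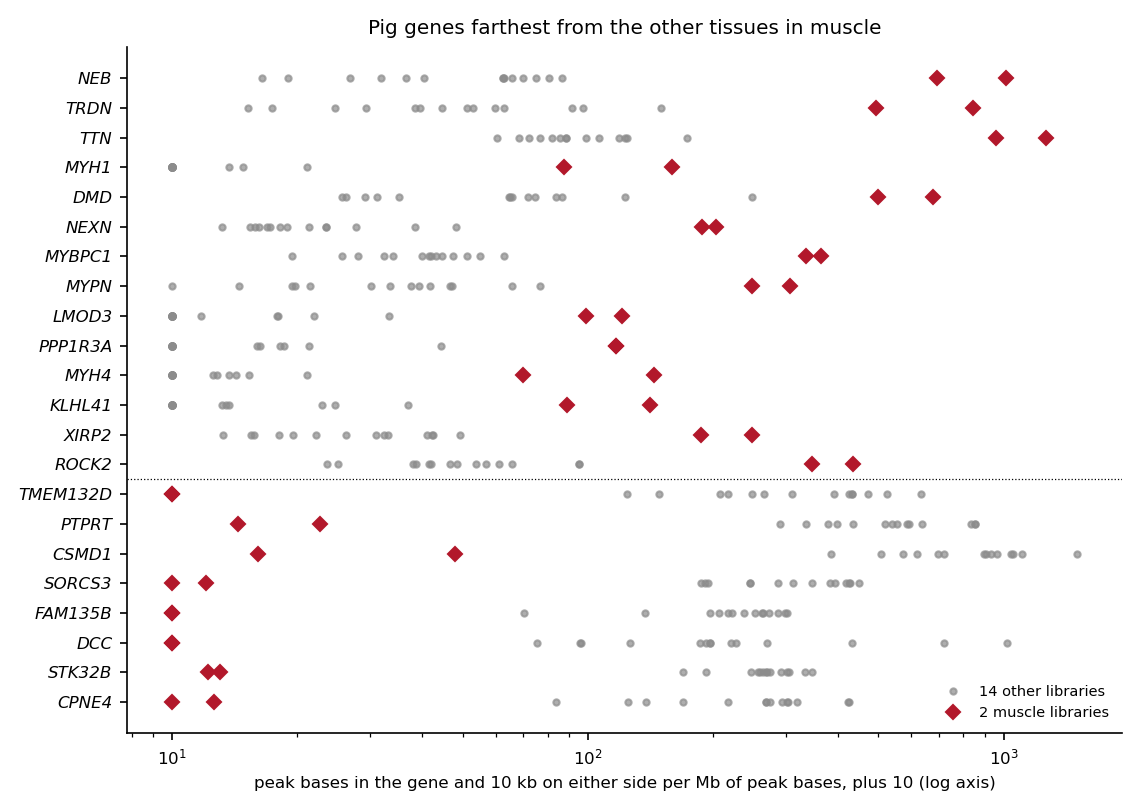
Each row is a pig gene and each point a library, red diamonds for the 2 muscle libraries and grey circles for the 14 others, by peak bases per Mb of peak bases plus 10 on a log axis. The 14 genes above the dotted line, with NEB at 681 and 1005, were chosen to have both muscle values above all others. The 8 genes below it were chosen to have both under all others.

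Most members of the muscle gene lists were higher in muscle, to unequal degrees. Of 157 distinct genes in 9 muscle lists, 130 (82.8%) were higher and 2 lower, 108 (68.8%) had both muscle libraries above all others against 17.9% of all genes, and 103 (65.6%) were nearest to a private region against 26.2%. The lists were drawn up with results of these data known, so these shares describe them and test nothing. Thick filament and M-line genes were higher in 16 of 16, and thin filament and Z-disc genes in 30 of 30, with medians of 2.07 and 1.60 on the log2 scale above the median of all genes. With peaks at q under 0.0001 these counts were 13 of 16 and 23 of 30, and none was lower. Without the P350 muscle library they were 13 of 16 and 25 of 30.

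Excitation-contraction coupling followed with 20 of 22 higher, or 14 without P350. Beyond TRDN, the largest differences were those of JPH2, a junctophilin that ties the T-tubule to the sarcoplasmic reticulum, at 290 and 329 against 5.98 to 86.3, of ATP2A1, the fast-fibre calcium pump, at 130 and 200 against 2.08 to 65.6, and of its inhibitor SLN at 71.2 and 100.1 against 2.34 to 13.8. All 3 had both muscle libraries above the range of the others. In energy metabolism 17 of 21 were higher, or 7 without P350, led by CKM, PHKA1, AMPD1 and PRKAA2, the last a catalytic subunit of AMP-activated kinase at 102 and 119 against 14.52 to 44.0. The dystrophin complex had 12 of 16 higher, or 8 without P350, with CAPN3, the protease calpain 3, at 215 and 240 against 3.39 to 85.9 and DAG1, dystroglycan, at 186 and 230 against 17.5 to 86.2.

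Transcription factors of the muscle program were higher in 16 of 20, or 7 of 20 without P350. EYA4, a transcriptional coactivator, had 522 and 600 peak bases per Mb against 52.5 to 239, and TEAD1 had 669 and 765 against 123 to 262. MEF2A had 81.7 and 127 against 0 to 57.4, and its limma adjusted p of 0.0051 became 0.11 without the P350 muscle library and 0.070 with a pseudocount of 1. PAX7, the factor of satellite cells, the stem cells of muscle, had 122 and 157 against 4.58 to 81.1. One factor, EYA1, was called lower at a log2 difference of −0.51, with 108 in P348, below the lowest of the others, and 146 in P350, inside their range of 112 to 374, and it is named after its values were seen. With the animal as a replicate block no gene of the list was lower.

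The neuromuscular junction and satellite cell lists were nearer to the bulk, and without P350 each had 1 gene higher. For the junction, 5 of 10 were higher and 2 had both muscle libraries above all others, among them DOK7, an activator of the receptor kinase MUSK, at 131 and 161 against 7.15 to 52.5, while MUSK itself at 54.5 and 83.8 overlapped the others, which reached 60.9. For satellite cells, 5 of 10 were higher and 1 lower, VCAM1, at 0 and 7.64 against 0 to 51.3, and its call held in 7 of 24 refits. Growth and wasting genes were higher in 11 of 14, or 8 without P350, with TRIM63, the ubiquitin ligase MuRF1, at 84.0 and 111 against 0 to 21.1 and FBXO32, atrogin-1, at 169 and 143 against 16.2 to 78.0. The limma adjusted p of FBXO32 was 0.14 with peaks at q under 0.0001.

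The label of the tissue matched its markers. CKM, the muscle creatine kinase, had 103 and 128 against 0 to 37.3, ACTN3, the fast-fibre actinin, 96.6 and 155 against 3.66 to 45.4, and MYOD1 47.8 and 52.5 against 0.0151 to 26.5. In none of the 3 did muscle overlap another library. The limma adjusted p was 0.00026 for CKM, 0.00017 for ACTN3 and 0.0058 for MYOD1. That of MYOD1 was 0.081 without the P350 muscle library, 0.083 with peaks at q under 0.0001 and 0.096 within 2 kb of the TSS.

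**Figure D4:**
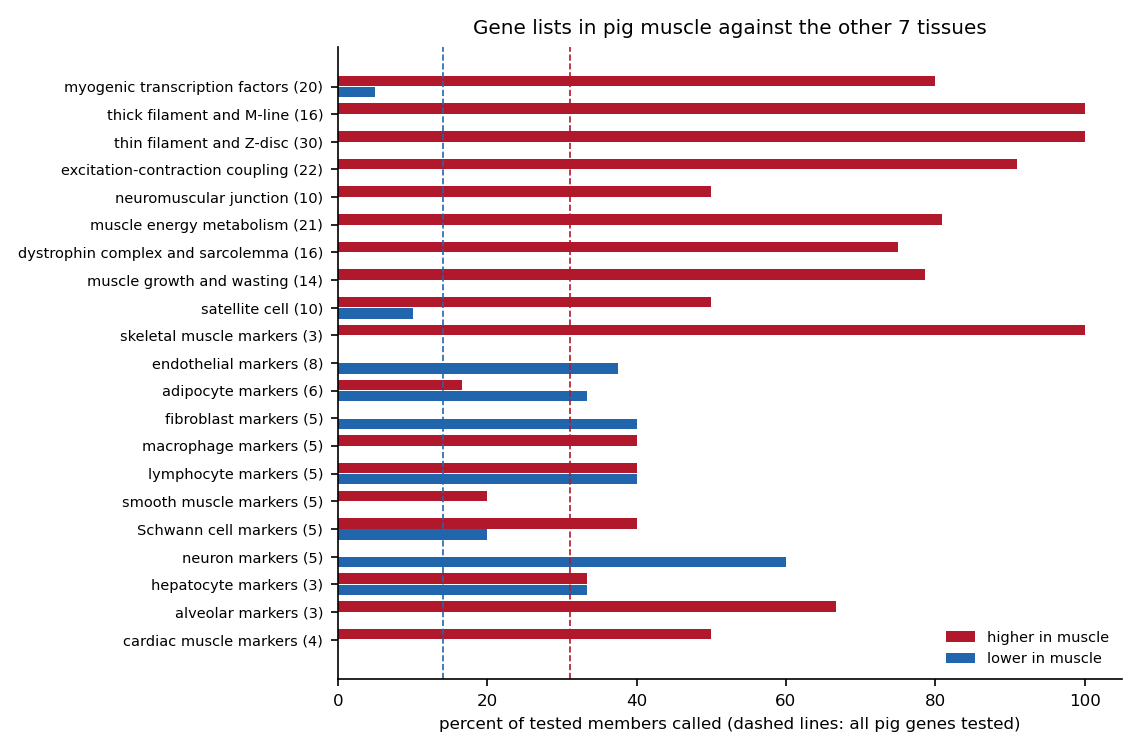
Bars give the percent of tested members of each list (number in brackets) called higher (red) or lower (blue) in pig muscle by limma, and dashed lines give the same percent over all genes, 31.1 and 14.1. All 16 thick filament and 30 thin filament genes are called higher, and 3 of 8 endothelial and 3 of 5 neuron markers lower.

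Markers of other cells that muscle tissue could hold were mixed. Endothelial markers were lower for 3 of 8 and higher for none, with TEK at 23.3 and 12.4 against 37.6 to 116 and KDR at 29.97 and 16.7 against 37.3 to 61.0, and their summed level was 465 and 323 against 310 to 701. Lymphocyte markers were higher for 2 and lower for 2 of 5, among them PTPRC at 2.53 and 0 against 27.9 to 221, and the sum was 84.1 and 84.5 against 36.5 to 410. Fibroblast markers had 2 of 5 lower, and a sum of 102 and 142 against 94.9 to 139. Among them LUM was at 0 in both muscle libraries, against 0 to 21.1, so 0 was not particular to muscle. Adipocyte markers had 1 of 6 higher, LIPE, and 2 lower, with a sum of 181 and 124 against 35.5 to 199. Of the lower ones ADIPOQ, at 8.83 and 10.3, lay inside the range of the others, 4.77 to 42.1.

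Neuron markers were lower for 3 of 5, and their sum of 163 and 142 lay at the low end of 138 to 626. The hepatocyte marker ALB was at 0 in both muscle libraries and 2.06 to 125 elsewhere, and 1 of 3 hepatocyte markers was higher, SERPINC1. Macrophage markers were higher for 2 of 5, CSF1R and CD68, with a sum of 235 and 245 inside 116 to 307. The difference of CD68 was −0.082 with peaks at q under 0.0001, and that of CSF1R −0.032 within 2 kb of the TSS. Smooth muscle markers were higher for 1 of 5, alveolar markers for 2 of 3 and cardiac markers for 2 of 4, and the cardiac sum of 107 and 122 stood above the others, 23.7 to 96.7. The Schwann cell list had 2 of 5 higher, among them PMP22 at 166 and 199 against 9.42 to 127, and 1 lower, with a sum of 226 and 250 against 16.9 to 162. The shares of these short lists stand beside 31.1% higher and 14.1% lower over all genes, and the part of other cells in the muscle values was not tested. Without P350 no endothelial, fibroblast or neuron marker was called lower.

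A set of very long genes, several of them known from neurons, had few or no peaks in muscle and had peaks in all 14 other libraries. The 8 genes with the largest difference downward were TMEM132D, PTPRT, CSMD1, SORCS3, FAM135B, DCC, STK32B and CPNE4, with log2 differences from −4.39 to −4.96 and adjusted p from 1.8e-08 to 3.9e-07 by limma. With peaks at q under 0.0001 all 8 were still called lower, at smaller differences, from −1.98 for TMEM132D to −3.89 for CSMD1. TMEM132D, a transmembrane protein of neural cells, had no peak base in either muscle library and 114 to 623 per Mb in the others. CSMD1, a complement regulator of the brain, had 37.9 and 6.07 against 375 to 1490, and DCC, the netrin receptor of growing axons, 0 and 0 against 65.3 to 1011. The 8 were picked among called genes with both muscle libraries below all 14 others, so that position is a rule and not a result. These genes are 289 to 1882 kb long. None held a private muscle region, which genes with so few muscle peaks could hardly have. Over the 2762 genes called lower the median length was 39.3 kb, against 25.5 kb for those called higher, and the highest library was most often from cerebellum, in 26.3%, or hypothalamus, in 17.4%.

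The same absence showed in single regions. In pig 1225 regions had a peak in all 14 other libraries and in neither muscle library, against 528 for cerebellum, 519 for spleen and 3 to 165 for the other 5 tissues. Cattle had 45 such regions, against 1195 for hypothalamus. The M22 hypothalamus list was the shortest in cattle, with 37204 peaks, and the part of list length was not tested. Of the 1225, 8.16% lay near a coding TSS and 62.3% were intergenic. They were weak where present, with a median over regions of 3.17 for the median fold of the 14 libraries, against 4.80 for regions open in all 16. The count depended on the peaks used: it was 63 with peaks at q under 0.0001 and 378 with lists of equal length. These filters also take peaks from the other lists, and the rule needs a peak in all 14 of them. The part of weak peaks in the count was therefore not tested. Without the P348 muscle library the count was 2382, but absence from that library is then no longer required, so the rule is looser.

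Sequence was not used to choose the regions, so its content could be compared. The central 300 bp of distal regions, those over 2 kb from a coding TSS, were searched on both strands. For regions the window lies at the centre of the merged region, and in a wide region it can miss the peak. The median width in pig was 431 bp for private muscle regions and 1437 bp for all regions open in muscle. Regions private to the other tissues had medians from 357 bp to 764 bp. The part of width in these and the later shares of regions was not tested. A match is a description and no proof of binding. The MEF2 consensus was found in 4.12% of the regions open only in muscle, in 0.31% to 1.09% of the regions private to each of the other 7 tissues, in 0.91% of shared muscle regions and in 0.71% of all regions. Among the private regions with a fold of at least 10 it was 4.47%. At the level of libraries, 1.44% of distal peaks in P348 and 1.92% in P350 had a match, against 0.33% to 0.75% in the others with a median of 0.50%. The highest of the others was a cerebral cortex library, and the muscle values stayed above all others with peaks at q under 0.0001, with lists of equal length and in the central 150 bp.

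Other muscle elements showed smaller gaps. The E-box CAGCTG, which any CANNTG search also counts, was in 27.8% and 28.3% of distal muscle peaks against 20.1% to 25.4%. With peaks at q under 0.0001 they overlapped the others, at 29.1% and 29.03% against 22.04% to 29.5%. The E-box was in 24.6% of private regions, close to the 25.0% of shared ones and above the 17% to 23.1% of other tissues' private regions, and it reached 34.1% at a fold of at least 10. The general CANNTG was in 85.4% of distal peaks in both animals against 83.2% to 84.9%, and in 83.9% of all regions. The MEF3 core TCAGGTT was in 8.01% of private regions against 4.35% to 7.33% in the other tissues and 5.95% of all, although distal peaks as a whole overlapped the others at 5.41% and 5.68% against 4.28% to 6.13%. The MCAT core CATTCC of TEAD factors was in 17.4%, under the 21.2% of lung and the 18.7% of cerebral cortex, and the CArG box of SRF in 1.99% against 1.25% to 2.40%, so neither set private muscle regions apart.

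AP-1 sites (TGANTCA) were in 14.6% of private muscle regions, level with lung at 14.6% and under cerebral cortex at 18.8%. In distal peaks they were in 12.4% and 15.7%, and the lower of these overlapped the cortex libraries, which reached 13.3%. CTCF, the insulator protein, had a match in 0.03% of private regions against 1.22% of shared muscle regions and 1.24% of the regions missing only in muscle, and it was also scarce in the regions private to other tissues, at 0% to 0.38%. The ETS core CCGGAA was in 2.47% against 5.49% of shared muscle regions and 3.61% of all, and RUNX (TGTGGT) in 23.7% against 26.2% of all and 36.6% of regions private to spleen. The NR3C1 half-site AGAACA was in 22.5%, inside the 19.4% to 26.5% of the other tissues.

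**Figure D5:**
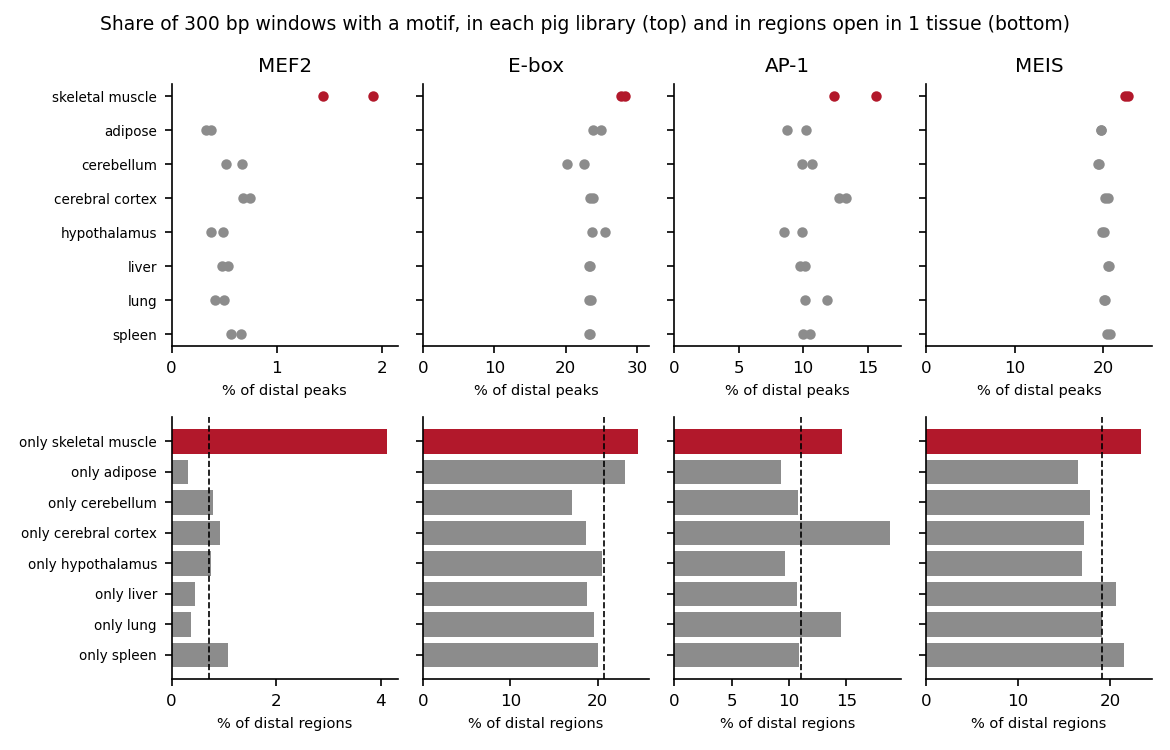
The top row gives the percent of distal peaks with a match in their central 300 bp for each of 16 pig libraries, with muscle in red, and the bottom row the percent of distal regions open in 1 tissue only, with a dashed line for all regions. MEF2 matches are in 4.12% of private muscle regions and at most 1.09% of any other tissue's, and the E-box and MEIS panels show smaller gaps. For AP-1 muscle does not lead, with 14.6% of its private regions against 18.8% of those of cerebral cortex.

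All words of 6 bases, each counted with its reverse complement, were tested the same way, without reference to known motifs. Muscle distal peaks held 34 of them (1.63%) more often and 41 (1.97%) less often than the other 7 tissues at an adjusted p under 0.05 by limma. With the animal as a replicate block the counts were 26 and 15. No word passed without the P350 muscle library, where 49 words were higher at an unadjusted p under 0.05 against 135 with all libraries, and 13 were higher without P348, so single words rest on 2 libraries. Of the 34 words, 27 had both muscle libraries above all others, and 14 held TGAC on either strand, out of 48 words that contain it. TGAC was not a planned motif, and words that hold it overlap, so this count describes the list and tests nothing.

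GTGACA was in 20.1% and 20.3% of muscle peaks against 16.4% to 18.6%, a log2 difference of 0.20 (SE 0.02, limma adjusted p = 0.0011). CTGTCA, whose reverse is the TGACAG of MEIS and TGIF factors, was in 22.4% and 22.8% against 19.4% to 20.8%, and in 23.4% of private regions against 16.5% to 21.6% in other tissues and 19.2% of all. GAGTCA and GACTCA, each part of an AP-1 site, had differences of 0.29 and 0.27. CAGCTG came in this test at 0.26 (SE 0.04, limma adjusted p = 0.0063), with an adjusted p of 0.067 without P348 and 0.22 without P350. CTTGGC, with the TTGGC half-site of NFI factors, had 26.7% and 27.7% against 20.0% to 25.1%, and AGGTCA, a nuclear receptor half-site, 24.0% and 23.8% against 16.7% to 24.4%, where liver was as high. TTGGC itself was in 50.5% of private regions against 44.9% of all and 56.6% of those private to liver, and AGGTCA in 25.2% against 21.4% and 31.5%. Base composition moved too: private distal regions were 45.4% GC against 51.5% for shared ones and 44.7% for those private to another tissue, and its part in these shares was not tested.

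Lung was among the tissues that shared most with muscle in both species, and the tissue that shared least differed. The Jaccard index, the bases in common over the bases in either list, averaged 0.219 with cortex, 0.217 with lung and 0.212 with liver in pig and was lowest with cerebellum, 0.130. In cattle it was 0.240 with lung and 0.234 with liver and lowest with hypothalamus, 0.142. The ranges over library pairs overlapped among cortex (0.211 to 0.226), lung (0.192 to 0.236) and liver (0.201 to 0.217) in pig. That of adipose, 0.193 to 0.228, overlapped each of them. The order of these tissues is not resolved by this index, and list length differs between tissues and enters it. With all lists at the length of the shortest, lung was highest in both species, at 0.246 in pig and 0.314 in cattle. In pig, cortex (0.235 to 0.239) then overlapped lung (0.235 to 0.255), and liver (0.221 to 0.226) lay below both. Adipose, from 0.196 to 0.237, still overlapped each of them. Cerebellum in pig, 0.142, and hypothalamus in cattle, 0.191, stayed lowest.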

How the data were processed

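The deposited files are peak lists, 1 per library, which the authors made with MACS2 (broad peaks, q-value limit 0.05). Trim Galore 0.4.5, BWA 0.7.17, SAMtools 1.10 and Picard 2.18.17 are named in the submitters' processing notes, and whether reads were shifted for the transposase cut is not stated there. Fold is the deposited ratio of signal to local background, and the deposited −log10 q-value was used to filter and rank. The lists hold no read counts, the read numbers of the libraries were not used here, and intervals cover counting error only. Replicates are 2 animals, and p-values measure the spread between them.

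Peaks sharing 1 bp were merged. Genes and sequences came from RefSeq annotation of Sscrofa11.1, the build of the pig lists; no cattle genome was used here. limma 3.58.1 (R 4.3.3) was fitted to log2(peak bases per Mb + 10) over 16 pig libraries, for genes with a peak base in at least 2, and to log2 percents of 6-base words, with adjusted p under 0.05. A fold change on this scale understates the change of low genes. On simulated data 62 of 63 genes changed by 2 on the log2 scale and 43 of 82 changed by 1 were recovered with 13 false calls of 19638.

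Samples of one animal share its name, which pairs them across tissues. Over genes, the difference between the 2 pigs in muscle correlated with that in the other tissues at −0.17 to 0.023. Named were the 15 genes highest and 8 lowest by difference with both muscle libraries beyond all others, the 12 nearest to most private regions, per list the 2 to 4 members farthest from 0, the 6 strongest regions per species, and the 4 strongest promoters. Some genes that these rules name are not reported here. Members and lists were chosen with earlier results of these data known. MYH3, MYH8, CHRNE, MB, COX6A2 and MYH6 had no protein-coding entry by name. The NFI, MEIS and nuclear receptor searches were added after the 6-base words were seen, and the count of words with TGAC was not planned.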

Additional observations from a re-analysis of the deposited data

How the results depend on the processing

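Read depth was not used, 2 animals give each tissue its spread, and peak lists hold no signal under the caller's limit, so a missing peak does not show closed chromatin. Muscle lists of pig had the highest median −log10 q, and this was not adjusted for. Regions private to muscle numbered 10667 in pig and 6430 in cattle. They came to 20787 and 12083 where no other tissue had a peak in both animals, 20297 and 17750 with a peak in either muscle library, and 23205 and 11172 with peaks at q under 0.0001, and pig to 16311 at q under 0.01. Leaving out each library gave 10756 to 17390 in pig and 6454 to 13301 in cattle. Each library left out removes a condition of the rule, so these counts lie above the main ones by construction.

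The TSS proximal share was 1.51% within 500 bp and 4.05% to 4.43% over libraries left out. Regions missing only in muscle numbered 63 at q under 0.0001, 378 with lists of equal length and 1224 to 2382 over libraries left out. Genes called higher numbered 2271 within 2 kb of the TSS, 1948 at q under 0.0001 and 2190 to 6846 over libraries left out, and genes called lower 556 within 2 kb of the TSS and 1157 to 2920. The replicate block gave 5922 higher and 2760 lower.

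Words of 6 bases called higher numbered 64 in the central 150 bp, 18 in all peaks, 73 at q under 0.0001 and 0 to 42 over libraries left out, and words called lower 15 with the replicate block, 15 in all peaks and 0 to 51. With no word called by limma, without P350, 49 were higher at an unadjusted p under 0.05. Words called lower numbered 11 to 21 without either cortex library, either lung library, P350 liver or P350 spleen, and words called higher 20 without P348 cortex.

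Directions turned for 9 named marker or junction genes, none of them called in the opposite direction. At q under 0.0001 the difference was −0.40 for AGER, −0.082 for CD68, −0.25 for CHRNB1, 0.014 for DCN, −0.67 for SERPINC1 and 0.088 for SYT1. Within 2 kb of the TSS it was −0.032 for CSF1R, 0.17 for KDR, −0.17 for SERPINC1 and −0.045 for SFTPC. The cause was not tested. MEF2 matches, under alternatives chosen after seeing the data, were in 1.97% and 2.33% of muscle peaks at q under 0.0001 against 0.396% to 0.744%, and in 1.73% and 1.92% with lists of equal length against 0.313% to 0.798%.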
